A study of Mus musculus with 8 samples.

Results

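Clec4d, Clec4e, Clec4n and Siglec15 encode lectin receptors of immune cells, and Clec2d encodes a broadly expressed surface ligand. Fcer1g and Tyrobp encode adaptors through which such receptors signal. The 7 genes were taken by symbol from a table of 35976 genes measured in C2C12 cells, a mouse myoblast line derived from skeletal muscle. They were selected on their log2 difference between the groups compared here, or as relatives and partners of genes so selected, so that difference is described and carries no test. RNA was sequenced from 4 libraries of cells that had received a non-targeting shRNA, the controls, and from 4 of cells that had received an shRNA against Atad2. The Atad2 protein is an ATPase that binds acetylated histones on chromatin. Cells of both groups were transfected and carried an shRNA, and RNA was taken 48 h later. The labels name no further allele or agent, and whether the 4 libraries per group stem from separate cultures is not stated. A p-value here therefore reflects only how much these libraries vary.

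C-type lectin receptors recognise sugars or glycolipids through a shared fold. Dectin-2 (Clec4n), MCL (Clec4d) and Mincle (Clec4e) are neighbours in a gene cluster, are known mainly from macrophages, neutrophils and dendritic cells, and bind microbial glycolipids or mannans. They lack a signalling motif of their own and pair with the Fc receptor gamma chain (Fcer1g), whose immunoreceptor motif recruits the kinase SYK, which in turn acts through CARD9 on NF-kappaB. Siglec15, a sialic acid-binding lectin of osteoclasts and macrophages, pairs with DAP12 (Tyrobp) or DAP10 (Hcst). Clec2d, also called Clr-b, is of another kind: it is a broadly expressed surface ligand that holds back natural killer cells through their receptor Klrb1b.

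The recovered depth was 61.4 to 73.0 Mreads (megareads) in the control libraries and 50.3 to 72.3 Mreads in the Atad2 libraries, a difference within the spread between libraries (66.6 ± 4.8 against 61.7 ± 10.4, SD, n = 4 each, exact two-sided permutation p = 0.457). The level that 3 reads give, used as the limit for a gene without reads, was 0.0411 to 0.0596 RPM (reads per megaread of the library total) and covers counting error only. Of the 35976 genes, 13335 had no read in any library, while 15 housekeeping genes looked up for comparison had at least 1277 reads in every library. Atad2 itself stood at 14.656, 14.739, 14.671 and 14.605 in the controls and at 11.866, 11.765, 12.054 and 12.047 in the Atad2 libraries, on the deposited scale of log2(normalized count + 1). Its log2 difference was -2.73 ± 0.05 (SE), and the groups did not overlap. The first principal component, with 65.1% of the variance, separated the groups, and the second, with 8.29%, set Atad2 replicate 3 apart from the other 3 Atad2 libraries.

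Of the receptor genes, 3 were higher with the Atad2 shRNA, 1 ligand gene was lower, and the adaptors were at or near 0. Clec4d reached 59.6 times and Siglec15 9.62 times its control level, while Clec4e went from 2 to 6 reads per library to 14 to 22. Clec2d was 1.92-fold lower. Fcer1g had 1 to 22 reads per library in overlapping groups, and Clec4n and Tyrobp had no read in any of the 8 libraries. In bulk RNA, fewer cells that express a gene and less RNA per cell cannot be told apart.

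**Figure D1:**
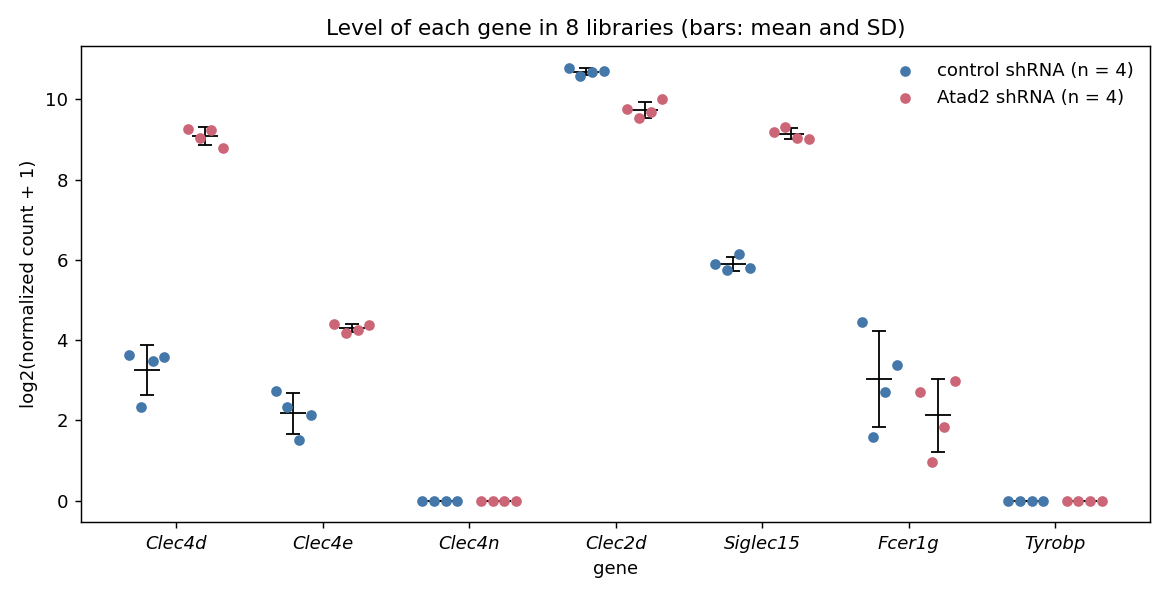
Level of each of the 7 genes in each library (points), on the y axis as log2(normalized count + 1), with a bar for the mean and the SD over 4 libraries, control shRNA in blue and Atad2 shRNA in red. Clec4d, Clec4e and Siglec15 sit higher in all 4 Atad2 libraries than in any control, Clec2d sits lower, Fcer1g overlaps, and Clec4n and Tyrobp are at 0 in all 8 libraries.

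Clec4d encodes MCL, which is known to assist Mincle to the cell surface. The gene lies at chr6:123262107-123275268 (GRCm38, protein-coding), and no annotated gene overlaps it. In the controls it stood at 3.619, 2.329, 3.486 and 3.588, which came from 12, 4, 11 and 13 reads. In the Atad2 libraries it stood at 9.266, 9.028, 9.239 and 8.779, which came from 673, 545, 469 and 379 reads. All 4 Atad2 libraries lay far above all controls, and among the controls replicate 2 was the lowest. The means were 3.26 ± 0.62 and 9.08 ± 0.23 (SD, n = 4 each), a log2 difference of 5.82 ± 0.27 (SE). Counted from the highest log2 difference down, Clec4d was number 2 of 14703 genes tested. Because the control level rests on few reads, the size of this difference is less certain than the level reached in the Atad2 libraries. Adding 8 in place of 1 before the log gave a difference of 5.02, and leaving out control replicate 2 gave 5.51.

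Clec4e encodes Mincle, the receptor for mycobacterial cord factor and for the nuclear protein SAP130 released by dying cells. It lies at chr6:123281789-123289871 on GRCm38, 6.521 kb beyond Clec4d. In the controls it stood at 2.732, 2.329, 1.514 and 2.135, from 6, 4, 2 and 4 reads. In the Atad2 libraries it stood at 4.399, 4.187, 4.248 and 4.368, from 22, 18, 14 and 17 reads. The groups did not overlap, and the Atad2 libraries were close together while the controls were spread. The log2 difference was 2.12 ± 0.54 (SE), a 5.03-fold higher normalized level. Clec4e passed the filter on low values, a mean above 3 on the log2 scale, only through its Atad2 libraries, so a difference was built into its passing. The value depended on the scale: it was 1.20 with 8 added before the log and 2.95 after quantile normalization.

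The bases before the annotated starts of these 2 adjacent genes are shown because they moved in the same direction while the gene next to them, Clec4n, had no reads. The sequences are the RefSeq promoters of GRCm38.p6, the 250 bases before the start, written 5′ to 3′ on the strand of the gene. Capitals mark matches to the core TTNNGNAA, on either strand, of the C/EBP family of basic leucine zipper factors.
Clec4d, chr6:123261857-123262106, plus strand: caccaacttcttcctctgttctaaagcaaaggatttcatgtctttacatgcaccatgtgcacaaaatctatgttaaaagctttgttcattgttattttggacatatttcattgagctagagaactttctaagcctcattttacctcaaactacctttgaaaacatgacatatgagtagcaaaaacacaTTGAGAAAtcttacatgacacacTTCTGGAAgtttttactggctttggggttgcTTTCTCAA
Clec4e, chr6:123289872-123290121, minus strand: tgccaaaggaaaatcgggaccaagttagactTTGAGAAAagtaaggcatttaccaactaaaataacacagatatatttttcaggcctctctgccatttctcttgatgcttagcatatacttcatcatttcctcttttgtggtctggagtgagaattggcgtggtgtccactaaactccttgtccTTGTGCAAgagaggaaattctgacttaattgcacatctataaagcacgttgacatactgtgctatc
Clec4d held 3 matches, with first bases 62, 39 and 8 bases before the start, and Clec4e held 2, at 219 and 66. Clec2d, which was lower with the Atad2 shRNA, also held 2 in its window, at 209 and 99, and Fcer1g held none. Of 32851 promoters of the same length, 36.8% held at least 1 such match, so this core is common. Clec4e also held TATAAA, the TATA box, 29 bases before its start, which 12.4% of promoters held and Clec4d did not. The PU.1 and ETS core GAGGAA was found once in the Clec4d window, 240 bases before the start, and at 123 and 56 bases in that of Clec4e, against 23.2% of promoters. Neither window held the AP-1 core TGANTCA (6.75% of promoters) or the antioxidant response core TGACNNNGC (10.2%), nor the NF-kappaB core that 45.8% of promoters held. Both strands were searched for every motif, no binding was measured, and a match describes letters only.

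Cebpb, which encodes a C/EBP factor known to act on lectin receptor genes in macrophages, was measured in the same libraries. It stood at 11.86 ± 0.16 in the controls and at 12.71 ± 0.02 in the Atad2 libraries (SD, n = 4 each), a log2 difference of 0.85 ± 0.06 (limma adjusted p = 3.09e-11). Cebpd stood at 8.03 ± 0.26 and 8.07 ± 0.19 and did not pass (limma adjusted p = 0.821). Spi1, the gene of PU.1, had 0 to 4 reads in the controls and 0 to 3 with the Atad2 shRNA. Whether any of these factors bears on Clec4d was not tested.

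Clec4n encodes Dectin-2, a receptor for fungal mannans, and lies at chr6:123229843-123247024, 15.083 kb before Clec4d. It had 0 reads in all 8 libraries, which allows up to 0.0289 to 0.0420 reads per kb of exon and megaread (RPKM) in a library at 3 reads. Of the 9 receptor genes listed for this cluster, 6 had no read in any library: Clec4n, Clec4a2, Clec4a3, Clec4a4, Clec4b1 and Clec4b2. Clec4a1 had 0 to 11 reads in the controls and 0 to 1 with the Atad2 shRNA. Clec4d was the only one of the 9 to exceed 100 reads in any library.

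Siglec15 encodes a receptor known for its part in the fusion and resorbing activity of osteoclasts. It lies at chr18:78042493-78057441 on GRCm38, and no annotated gene overlaps it. The control values were 5.890, 5.736, 6.141 and 5.789, from 62, 52, 75 and 64 reads. The Atad2 values were 9.194, 9.300, 9.045 and 9.007, from 640, 658, 410 and 444 reads. The groups were far apart, and within each group the libraries lay close together. The means were 5.89 ± 0.18 and 9.14 ± 0.14 (SD, n = 4 each), a log2 difference of 3.25 ± 0.15 (SE), and Siglec15 was number 30 of 14703 genes tested, counted from the highest difference down. Unlike Clec4d and Clec4e, it had at least 52 reads in every control library.

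Clec2d lies at chr6:129180615-129186535, on the chromosome of Clec4d but in the separate cluster of natural killer receptor genes. Its control values were 10.789, 10.590, 10.678 and 10.697, from 1881, 1531, 1765 and 1956 reads. Its Atad2 values were 9.749, 9.524, 9.677 and 9.999, from 941, 769, 636 and 884 reads. Every Atad2 library lay below every control library. The means were 10.69 ± 0.08 and 9.74 ± 0.20 (SD, n = 4 each), a log2 difference of -0.95 ± 0.08 (SE). Clec2d ranked 1496 from the lowest difference among the 14703 genes tested, so many genes lay lower.

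Fcer1g, the gamma chain that MCL, Mincle and Dectin-2 need, lies at chr1:171229572-171234349. In the controls it stood at 4.439, 1.591, 2.715 and 3.369, from 22, 2, 6 and 11 reads. In the Atad2 libraries it stood at 2.696, 0.968, 1.837 and 2.989, from 6, 1, 2 and 6 reads. The groups overlapped, and the mean of 2.58 kept the gene below the filter. The means were 3.03 ± 1.19 and 2.12 ± 0.91 (SD, n = 4 each), a log2 difference of -0.91 ± 0.75 (SE of the difference between means), and at this depth no difference was detectable. Tyrobp (chr7:30413782-30417582), the DAP12 adaptor, had 0 reads in all 8 libraries, which allows up to 0.0616 to 0.0894 RPKM. Hcst, the DAP10 adaptor, had 1 read, in control replicate 2.

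The 3 receptor genes that were higher and the adaptors differed in how their read numbers moved. Clec4d, Clec4e and Siglec15 together had 80, 60, 88 and 81 reads in the control libraries and 1335, 1221, 893 and 840 in the Atad2 libraries. Fcer1g, Tyrobp and Hcst together had 22, 3, 6 and 11 reads in the controls and 6, 1, 2 and 6 in the Atad2 libraries. The reads of the 3 receptors were higher in all 4 Atad2 libraries, whereas adaptor reads stayed within the range of the controls or below it. These receptors are the ones that were higher in the contrast used for the choice, so the rise of their sum was built in. Clec4n, which shares the gamma chain, had no reads and is not in the sum. The other listed adaptors with immunoreceptor motifs were also at few reads: Cd247 had 4 to 9 reads in the controls and 0 to 5 with the Atad2 shRNA, Cd79a had 0 to 10 and 1 to 5, and Cd3d, Cd3e, Cd3g and Cd79b had none.

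Per length, the order of the genes was Clec2d, Siglec15 and then Clec4d in both groups, but the distances changed. In the controls Clec2d stood at 22.04 ± 1.18 RPKM, Siglec15 at 0.821 ± 0.112, Clec4d at 0.0925 ± 0.0347 and Clec4e at 0.0121 (SD, n = 4). In the Atad2 libraries Clec2d stood at 10.9 ± 1.60 RPKM, Siglec15 at 7.48 ± 0.647, Clec4d at 5.22 ± 0.760 and Clec4e at 0.0579. Siglec15 stood above Clec4d in each library, with Clec4d at 0.0556 to 0.147 of it in the controls and 0.599 to 0.827 in the Atad2 libraries. Within a library, Clec2d was 22.4 to 29.1 times Siglec15 in the controls and 1.11 to 1.90 times in the Atad2 libraries. Clec2d was 198 to 505 times Clec4d in the controls and 1.79 to 3.07 times in the Atad2 libraries. Clec4d was above its neighbour Clec4e in every library, by 3.11 to 17.1 times in the controls and 69.2 to 104 times in the Atad2 libraries. Clec4d and Fcer1g (0.174 ± 0.149 RPKM, SD) did not differ beyond their spread in the controls, with ratios from 0.298 to 1.09, whereas Clec4d was 34.5 to 298 times Fcer1g in the Atad2 libraries. These ratios rest on as few as 1 read for Fcer1g and 2 reads for Clec4e.

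**Figure D2:**
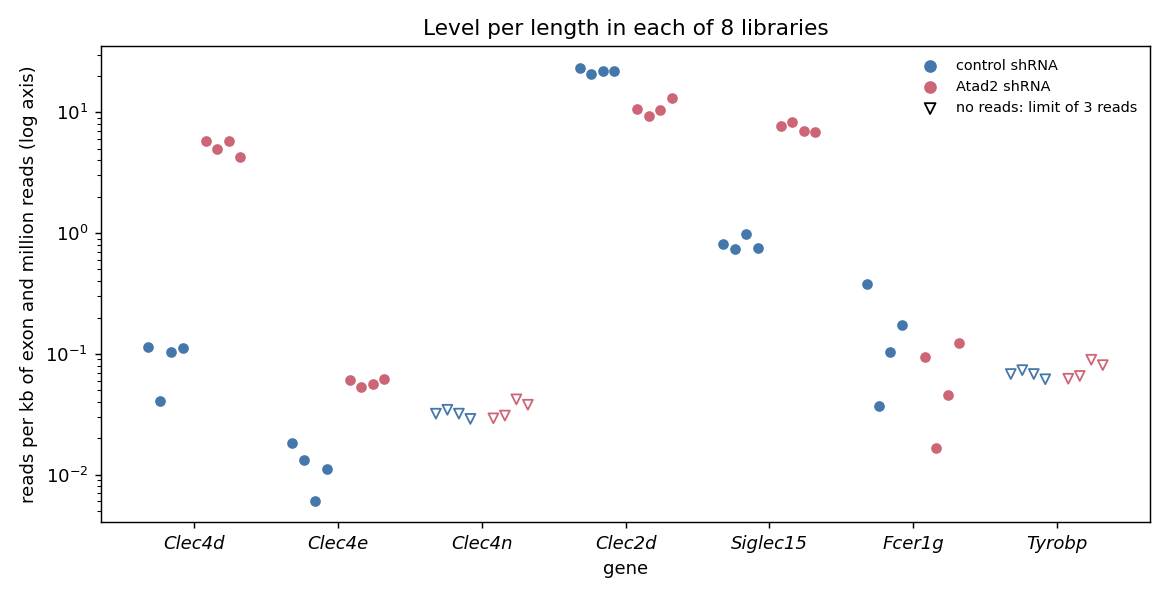
Level of each of the 7 genes per library (points) in RPKM, on a log axis, control shRNA in blue and Atad2 shRNA in red. Open triangles mark libraries without a read, at the level that 3 reads would give, and in the Atad2 libraries Siglec15 and Clec4d come within 3.07 times of Clec2d, from far below it in the controls.

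Of the 7 genes, 4 passed the filter and 3 did not. Of the 4, 3 were higher and 1 lower in limma at an adjusted p under 0.05, and the same 3 and 1 had no overlap between groups. Across all 14703 genes tested, 30.8% were called higher and 29.6% lower, and 27.7% were higher and 25.8% lower without overlap. Since this contrast was used to choose the genes, nothing is read from their count. Weakly expressed genes were more often called lower than higher in this comparison: of 1593 genes with a mean between 5 and 7, where Clec4d lies, 156 were higher and 681 lower, with a median log2 difference of -0.47. Without Atad2 replicate 3, the library that stood apart, the log2 differences were 5.77 for Clec4d, 2.14 for Clec4e, 3.28 for Siglec15, -0.93 for Clec2d and -0.81 for Fcer1g.

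The counts in the lists of related genes stand beside the 30.8% of all tested genes called higher and the 29.6% called lower. Some listed genes had a mean above 3 in 1 group only, so they passed the filter through the group where they were high. Some difference between their means was built into that, though Inpp5d and Neu2, also of this kind, were not called. Where a gene of this kind is described, its values are given without a p. Of 44 other C-type lectin genes, 17 had no read in any library and 17 were tested, of which 6 were higher, 8 lower and 3 did not pass. Of these 17, Asgr2, Clec1a and Clec2l passed the filter through 1 group only. The median log2 difference of the 17 was -0.30, beside -0.0095 for all genes tested. The relatives without reads included Clec1b, Clec9a, Clec12a, Clec4f, Clec4g, Cd209a, Cd209b and Cd209d, and Clec7a, the beta-glucan receptor Dectin-1, had 0 to 3 reads in the controls and 0 to 1 with the Atad2 shRNA. Clec5a, a receptor that pairs with DAP12, had 0 to 1 reads per control library and none in the Atad2 libraries.

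Among those that passed, Pla2r1, a receptor for secreted phospholipases, was lower by -2.74 ± 0.18. Thbd, the thrombin cofactor thrombomodulin, was lower by -0.62 ± 0.04, the endocytic receptor Ly75 by -0.32 ± 0.04 and the scavenger receptor Colec12 by -0.29 ± 0.04. Layn, a hyaluronan receptor, was higher by 1.23 ± 0.04, and the collagen receptor Mrc2 by 0.68 ± 0.05. These are log2 differences with their SE, and the limma adjusted p was 6.36e-06 or lower for each. Asgr1 and Asgr2, which encode the asialoglycoprotein receptor of hepatocytes, are named after their values were seen. Asgr1 had 22 to 31 reads in the controls and 100 to 162 with the Atad2 shRNA, and its log2 difference was 2.42 ± 0.24 (limma adjusted p = 2.08e-08). Asgr2 had 0 to 3 and 20 to 78 reads, a log2 difference of 4.41 ± 0.61 in a gene that passed the filter only through its Atad2 libraries. Clec1a, likewise named after its values were seen, had 25 to 42 reads in the controls and 1 to 4 with the Atad2 shRNA, a log2 difference of -3.43 ± 0.53 in a gene that passed the filter only through the controls.

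Apart from Siglecg, the rest of the Siglec family was hardly expressed. Of the 8 Siglec genes other than Siglec15, 3 had no reads (Cd22, Siglecf and Siglech) and 1 was tested. That gene was Siglecg, an inhibitory Siglec of B cells, which stood at 6.956, 7.500, 6.991 and 6.659 in the controls and at 4.828, 4.027, 4.872 and 4.592 in the Atad2 libraries. Every Atad2 library lay below every control, with 118 to 179 reads against 16 to 30 and a log2 difference of -2.45 ± 0.27 (limma adjusted p = 1.38e-07). Siglec1, the macrophage sialoadhesin, had 0 reads in all controls and 1 to 9 in the Atad2 libraries. Cd33 had 1 to 7 and 2 to 7 reads per library, Siglece 0 to 2 and 0 to 4, and Mag at most 2, so these were below the filter.

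**Figure D3:**
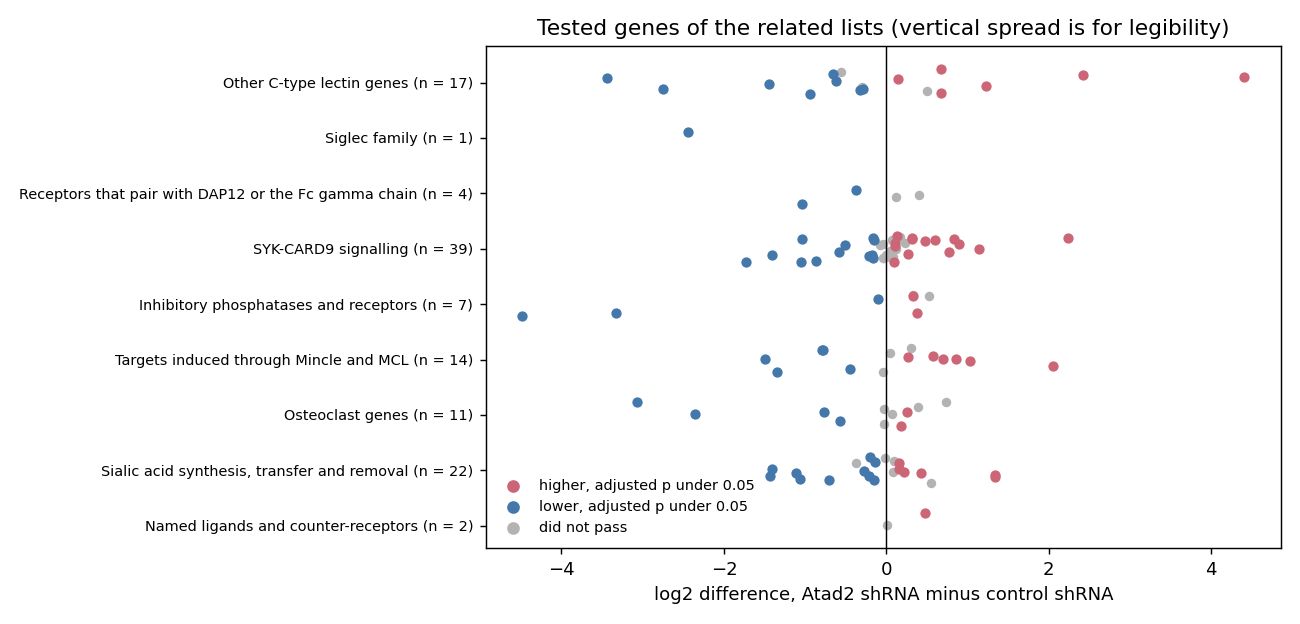
Log2 difference, Atad2 minus control shRNA, of each tested gene in 9 related lists (points, x axis), coloured by whether limma called it higher, lower or neither; vertical scatter within a list carries no value. Each of the lists with 7 or more tested genes holds calls in both directions, and the 1 tested Siglec gene is lower.

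Most of the other receptors listed with the same adaptors had no reads. Of 29 genes listed as pairing with DAP12 or the gamma chain, 28 were in the table, 19 had no read in any library, and 4 were tested, of which 0 were higher and 2 lower. Trem1, Trem3, Fcgr1, Klrk1, Klrd1, Ncr1, Pira2 and Pira6 were among those without reads. Il3ra, the interleukin 3 receptor subunit, was lower by -0.37 ± 0.08 (limma adjusted p = 0.000297), with 1020 to 1188 reads in the controls and 591 to 900 with the Atad2 shRNA. Fcgr4, a receptor for immunoglobulin G, was lower by -1.04 ± 0.41 (limma adjusted p = 0.0327), a call lost under 9 of 18 alternatives with adjusted p from 0.00139 to 0.26. It was lost when any one of control replicates 1 and 2 or of Atad2 replicates 1, 2 and 3 was left out. Cd300lb stood at 5.96 ± 0.46 and 6.36 ± 0.12 and Csf2rb at 11.24 ± 0.11 and 11.36 ± 0.12 (SD, n = 4 each), and neither passed.

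Downstream of the adaptors, most genes of the SYK and CARD9 pathway were expressed. Of 46 genes, 39 were tested, 14 were higher, 12 lower and 13 did not pass, with a median log2 difference of 0.07. Syk, the kinase that binds the phosphorylated adaptors, stood at 11.852, 11.849, 11.838 and 11.795 in the controls and at 10.946, 10.836, 10.671 and 10.737 in the Atad2 libraries. The groups did not overlap, and the log2 difference was -1.04 ± 0.05 (limma adjusted p at most 1.56e-05 under every alternative run). Card9, the adaptor specific to this route, had 0 to 4 reads in the controls and 0 to 11 with the Atad2 shRNA, while its partners Bcl10 and Malt1 stood at 10.42 ± 0.04 and 9.49 ± 0.21 in the controls. Malt1, the protease of that complex, was lower by -0.51 ± 0.12, and Bcl10 did not pass at 0.05 ± 0.06 (limma adjusted p = 0.000712 and 0.514).

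Pik3cd, a phosphoinositide kinase subunit, was lower by -1.73 ± 0.13. Prkcd, the protein kinase that phosphorylates CARD9, was higher by 0.83 ± 0.04, and Ikbkg, the regulatory subunit of the IKK complex, by 1.15 ± 0.03. Relb, an NF-kappaB subunit, was higher by 0.89 ± 0.09 and Sh3bp2, an adaptor of SYK, by 0.77 ± 0.06 (limma adjusted p = 2.2e-08 or lower for these 5). The kinase Src was higher by 0.31 ± 0.05, and the ligase Traf6 was lower by -0.15 ± 0.06 (limma adjusted p = 0.0268). The Traf6 call was lost under 6 of 18 alternatives, with adjusted p from 0.0106 to 0.101, 4 of which left out 1 library each (control replicates 1, 3 and 4 and Atad2 replicate 1). Vav1 and Lcp2, signalling proteins of blood cells, had no reads.

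Of 12 inhibitory receptors and phosphatases, 7 were tested, 2 were higher, 3 lower and 2 did not pass, with a median log2 difference of 0.32. Sirpa, the receptor of CD47, was lower by -3.33 ± 0.23, with 307 to 402 reads in the controls and 21 to 44 with the Atad2 shRNA. Pilra had 32, 66, 43 and 52 reads in the controls and 0, 6, 1 and 0 in the Atad2 libraries, a fitted log2 difference of -4.48 ± 0.64 that depends on the offset where libraries are at 0. Pilra passed the filter only through the controls, and without any 1 control library the list held 2 lower calls in place of 3. Inppl1 and Ptprj, a lipid and a tyrosine phosphatase, were higher by 0.37 ± 0.03 and 0.33 ± 0.04. Ptpn11 was lower by -0.10 ± 0.03 (limma adjusted p = 0.0145), a call lost under 3 of 18 alternatives with adjusted p up to 0.064, among them leaving out Atad2 replicate 3. Ptpn6, the phosphatase SHP-1 of blood cells, did not pass at 0.32 ± 0.25 (limma adjusted p = 0.273).

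Of 26 genes that macrophages induce through Mincle and MCL, 5 had no reads (Il10, Il12b, Cxcl2, Csf2 and Acod1). Of 14 tested, 6 were higher, 5 lower and 3 did not pass, with a median log2 difference of 0.15. Egr3, an early response transcription factor, was higher by 2.05 ± 0.09, Ptgs2, the prostaglandin synthase, by 1.02 ± 0.07, Cebpb by 0.85 ± 0.06 and Nfkbia, the NF-kappaB inhibitor, by 0.69 ± 0.04. The neutrophil chemokines Cxcl5 and Cxcl1 were lower by -1.49 ± 0.11 and -1.35 ± 0.12, and Hif1a by -0.45 ± 0.03 (limma adjusted p = 4.79e-09 or lower for these 7). Cxcl1 is named after its values were seen. Tnf and Nos2 were not among the genes tested, and Il6, at 14 to 51 reads in the controls and 20 to 37 with the Atad2 shRNA, did not pass (limma adjusted p = 0.515).

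Siglec15 is best studied in osteoclasts, and other genes known from these cells were counted. Of 18 genes, 2 had no reads (Dcstamp and Calcr), and of 11 tested 2 were higher, 4 lower and 5 did not pass, with a median log2 difference of -0.03. Atp6v0d2, a proton pump subunit, was lower by -2.35 ± 0.40 (limma adjusted p = 3.23e-05). Tnfrsf11a, the receptor RANK, had a log2 difference of -3.07 ± 0.47, with 50 to 86 and 2 to 10 reads, and passed the filter only through the controls. The integrin Itgb3 was lower by -0.56 ± 0.04 and the transcription factor Jdp2 by -0.77 ± 0.04. Csf1, the growth factor of the osteoclast lineage, was higher by 0.25 ± 0.05. Fosl2 was higher by 0.18 ± 0.04 (limma adjusted p = 0.000582), a call lost after quantile normalization (0.0925, the highest of 18 alternatives, the lowest being 0.000174). Acp5, the classic osteoclast phosphatase, had 0 reads in all controls and 0 to 4 in the Atad2 libraries, and Ctsk had 11 to 30 and 13 to 17.

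Siglec15 binds glycans that end in sialic acid, so the enzymes that make and remove these ends were counted too. Of 34 genes, 7 had no reads and 22 were tested, of which 6 were higher, 10 lower and 6 did not pass, with a median log2 difference of -0.14. The sialyltransferases St3gal1 and St6galnac4, which act on O-linked glycans, were higher by 1.34 ± 0.05 and 1.34 ± 0.06. St6gal1, which acts on N-linked glycans, was lower by -1.07 ± 0.09, St3gal6 by -1.11 ± 0.16 and St3gal5, which makes the ganglioside GM3, by -0.70 ± 0.06. Siae, which removes acetyl groups from sialic acid, was lower by -1.40 ± 0.14. The limma adjusted p of these 6 genes was 4.21e-06 or lower. St6galnac1, whose product sialyl-Tn is a known Siglec15 ligand, had no reads.

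Of the listed ligands and counter-receptors, Sap130 did not differ beyond its error (0.0028 ± 0.04, limma adjusted p = 0.958). After quantile normalization it was -0.0937 and was called lower (limma adjusted p = 0.0453, the lowest of 18 alternatives, the highest being 0.97). Sap130 was listed by its symbol, but it encodes a different protein from the spliceosomal SAP130 that Mincle binds. That ligand is encoded by Sf3b3, named below among the genes most like Siglec15, with a log2 difference of 0.40 ± 0.03 (SE). Cd44 was higher by 0.48 ± 0.04 (limma adjusted p = 5.91e-10). Klrb1b, the receptor of Clec2d, had no reads, and its relative Klrb1a had 0 reads in all controls and 4 to 10 in the Atad2 libraries.

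Most of the genes beside Clec4d that the table holds had no reads, and those tested beside Siglec15 differed in both directions. Of the 5 annotated neighbours on each side of Clec4d, 6 were in the table and 5 of these had no read in any library, the exception being Clec4e. Of the neighbours of Siglec15, 8 were in the table and 5 were tested. Epg5, an autophagy gene 5.168 kb away on one side, was lower by -0.10 ± 0.04 (limma adjusted p = 0.0427). Slc14a1, a urea transporter 42.65 kb away on the other side, stood at 2.73 and 4.92, a log2 difference of 2.19 ± 0.57 in a gene that passed the filter only through its Atad2 libraries. Beyond Slc14a1, below the filter, Gm36338 stood at 0 and 1.96 (14 reads over all libraries) and Slc14a2 at 0.24 and 1.31 (11 reads). Gm36418, further on, had no reads. Pstpip2 and Atp5a1 were higher by 0.16 ± 0.06 and 0.14 ± 0.03 (limma adjusted p = 0.0238 and 0.000301), and F830208F22Rik did not pass (0.04 ± 0.47). The stability of these neighbours' calls under other settings was not examined. Of the neighbours of Clec2d, 9 were in the table and 1 was tested, the lncRNA 2310001H17Rik, lower by -1.36 ± 0.35 (limma adjusted p = 0.00244).

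**Figure D4:**
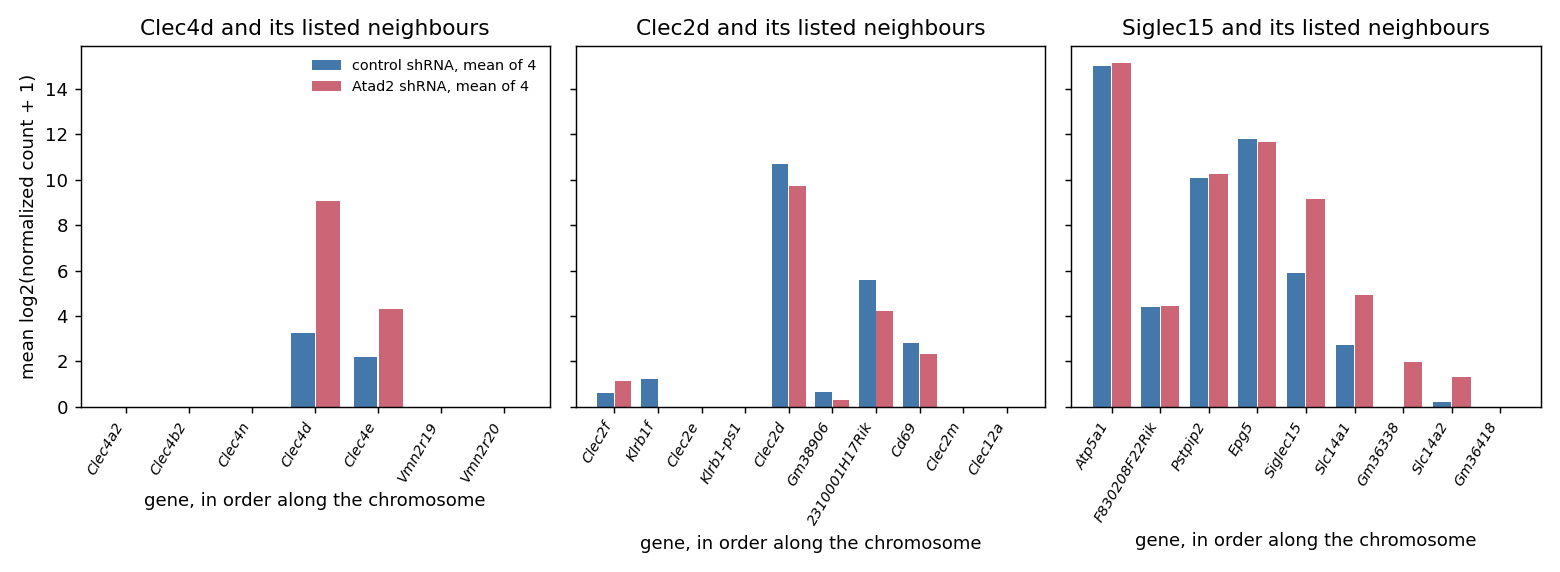
Mean level, as log2(normalized count + 1) from 0 on the y axis, of Clec4d, Clec2d, Siglec15 and those of their 5 nearest annotated neighbours on each side that the table holds, in order along the chromosome, control shRNA in blue and Atad2 shRNA in red (bars, 4 libraries each, no error drawn). Beside Clec4d only Clec4e has reads, while Siglec15 stands between Epg5, at 11.78 and 11.68, and Slc14a1, whose mean is also higher in the Atad2 libraries.

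By Pearson correlation of log2 values over the 8 libraries, the genes most like Clec4d were Samd4b (r = 0.9990), Hspb8 (0.9990), Tead2 (0.9982), Esd (0.9978) and Sqstm1 (0.9973). Those most like Siglec15 were Pogk (0.9989), Sf3b3 (0.9987), Rnf44 (0.9983), Dip2a (0.9982) and Hacd3 (0.9981). The 8 points fall into the 2 groups, so r mainly reflects the gap between groups, and 1586 of 14702 genes exceeded 0.95 with Clec4d and 1654 with Siglec15. Clec4d and Siglec15 had r = 0.9920 with each other and were number 174 and number 112 in each other's order. None of the 10 leading genes changed by as much as the receptors: their log2 differences ran from 0.37 for Hacd3 to 0.87 for Rnf44.

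Because these receptors are known from immune cells, markers of such cells were read in the same libraries. Of 22 macrophage and pan-leukocyte markers, 8 had no read in any library (Adgre1, Cybb, Ms4a7, C1qa, C1qb, C1qc, Fcgr1 and Cd52). Ptprc, the gene of CD45, had 0 to 4 reads per library in both groups, Itgam at most 1 and Laptm5 at most 6. The summed level of the 22 genes was 19.8 to 20.9 RPM in the controls and 22.01 to 26.02 in the Atad2 libraries, higher in every Atad2 library. Of 8 markers tested, 2 were higher, 1 lower and 5 did not pass. The lysosomal gene Cd68 was higher by 1.17 ± 0.11 and Cd53 was lower by -0.44 ± 0.14 (limma adjusted p = 1.4e-08 and 0.0105). Itgb2, an integrin of leukocytes, had 2 to 10 reads in the controls and 36 to 111 with the Atad2 shRNA, a log2 difference of 3.69 ± 0.47, and passed the filter only through its Atad2 libraries. Csf1r, the receptor of macrophage growth factor, had 10 to 43 and 34 to 53 reads and did not pass (limma adjusted p = 0.11). Most of the summed level came from Cd14, Cd68 and Cd53, with Cd14 at 666 to 790 reads in the controls and 437 to 703 with the Atad2 shRNA (limma adjusted p = 0.175). The part of such cells in the levels of Clec4d and Siglec15 was not tested.

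Of 15 neutrophil and mast cell markers, 10 had no reads, and the sum was 0.0137 to 0.166 RPM in the controls and 0.0876 to 0.430 in the Atad2 libraries. Of 16 lymphocyte and natural killer cell markers, 10 had no reads, with sums of 0.847 to 1.19 and 0.537 to 0.830. Lck had 55 to 79 reads in the controls and 13 to 45 with the Atad2 shRNA, whereas Il2rb, below the filter, had 0 to 2 and 11 to 17. Of 9 osteoclast markers, 2 had no reads, with sums of 1.95 to 2.27 and 0.671 to 0.789. These sums were lower in every Atad2 library, as were those of the lymphocyte and natural killer cell markers. Of 3 osteoclast markers tested, 2 were lower, Tnfrsf11a (50 to 86 and 2 to 10 reads) and Atp6v0d2 (29 to 65 and 6 to 12). Tnfrsf11a passed the filter only through the controls. Ctsk did not pass. Below the filter, Acp5, Mmp9 and Oscar had higher means in the Atad2 libraries and Ocstamp a lower one. All 10 myoblast markers had reads, with sums of 907 to 956 and 921 to 1015 RPM, and 4 were higher and 6 lower. Myod1 stood at 12.61 ± 0.06 and 12.86 ± 0.06, Des at 14.74 ± 0.05 and 15.12 ± 0.06, and Myf5 at 9.54 ± 0.15 and 8.26 ± 0.13 (SD, n = 4 each). Myog, which marks early differentiation, was higher by 2.15 ± 0.26 (limma adjusted p = 3.34e-07), with 23 to 39 and 73 to 158 reads. Pax7 had 19 to 41 and 0 to 12 reads and Msc 42 to 76 and 1 to 10, and both passed the filter only through the controls. Some fibroblast markers were also present, with sums of 1046 to 1179 RPM in the controls and 871 to 1185 in the Atad2 libraries. Most of this sum came from Col3a1, with 66819 to 73969 reads in the controls, where Pdgfra had 1935 to 2291. Of the 8 fibroblast markers, 3 had no reads (Lum, Thy1 and Tcf21), and of 4 tested 3 were higher and 1 lower. Pdgfra was higher by 1.31 ± 0.04 and Col3a1, the most abundant, was lower by -0.16 ± 0.06 (limma adjusted p = 1.34e-16 and 0.0403).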

How the data were processed

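RNA was measured in 8 libraries of C2C12 cells, 4 per group, grouped by their labels. Per the submitters' processing notes, the tools were HTSeq 0.13.5, DESeq2 (no version named), SAMtools 1.1 and bcl2fastq 2.20, with build mm10. Genes with near-identical copies are uncertain, since aligner, annotation and strand setting were not given in the sources used here. The values the authors deposited are log2(x + 1) of counts divided by a size factor, rounded to 3 decimals, a form read from the values: low values were whole multiples of 1 step per library for all genes up to 20 reads, within a tolerance of 0.1 reads. Reads were recovered with that step, and high counts are approximate.

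Genes with a mean above 3 were tested two-sided with limma 3.58.1 in R 4.3.3 (lmFit, eBayes with trend, no covariates), with Benjamini-Hochberg adjustment over all genes tested. Differences of low genes are understated on this scale. The procedure was tested on simulated data in which few genes, all with many reads, were changed. That test does not bear on genes with few reads or on a comparison with this many calls. RPKM used recovered reads, library totals and GENCODE M21 exon lengths. Coordinates are from RefSeq, and promoters of 4 of the 7 genes were matched by symbol: Clec4d, Clec4e, Clec2d and Fcer1g. Tables and plots were made with Python 3.11.15, NumPy 2.4.6, pandas 2.3.3, SciPy 1.17.1 and matplotlib 3.10.9.

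The members and the gene lists were chosen with earlier results of these data known. Besides the 7 genes and Atad2, the naming rule took from each list, by adjusted p, up to 4 called genes in the commoner direction and up to 2 in the rarer one, a few partners by role, the 5 genes most correlated with Clec4d and with Siglec15, and tested neighbours. Other genes are named as members of a list, for their low reads, or after their values were seen. Alternatives varied the filter (none, or a mean above 5), the offset (8), the scaling (quantile normalization, median centring), the eBayes prior (no trend, robust), the model (replicate block, limma-voom on recovered reads), the threshold (0.01) and the libraries (each left out).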

Additional observations from a re-analysis of the deposited data

Results flagged for a closer look

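Among 96 groups of 4 libraries examined, over the 7 genes and the genes named with them, 5 held a value that stood apart from the other 3 by more than Dixon's critical share of the whole range, and chance alone gives about 1 in 20. Clec4d in control replicate 2 was the lowest control, at 2.329 from 4 reads, where the others had 11 to 13. Cxcl5 had a highest Atad2 value of 9.578. Pla2r1 had a lowest Atad2 value of 5.937. St3gal5 had a highest Atad2 value of 10.9. Thbd had a lowest control value of 12.78. None of these changed the direction of its gene under any library left out.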

How the results depend on the processing

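Clec4d, Clec4e, Siglec15 and Clec2d kept their direction under every alternative run. With an offset of 8 the log2 difference was 5.02 for Clec4d and 1.20 for Clec4e, and after quantile normalization it was 2.95 for Clec4e and 3.54 for Siglec15. Leaving out 1 library gave 5.51 to 5.94 for Clec4d, 1.90 to 2.31 for Clec4e, 3.19 to 3.33 for Siglec15, -1.04 to -0.88 for Clec2d and -1.39 to -0.44 for Fcer1g. Sap130 changed sign to -0.0937 after quantile normalization, and with 1 library left out it ran from -0.0232 to 0.0249. Calls over all genes ran from 3805 to 4568 higher and from 3480 to 4717 lower, and those in the lists from 32 to 44 higher and from 38 to 48 lower. For the receptors that pair with DAP12 or the gamma chain, counts of 0 higher and 2 lower became 2 and 1 without a filter and 1 and 1 after quantile normalization. Without control replicate 2 or without Atad2 replicate 2 they became 1 and 1. Of the osteoclast genes, 2 in place of 4 were lower at a mean above 5, where fewer genes were tested. Where no cause is given, the cause was not tested.

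The replicate block left the members' differences as they were (5.82 for Clec4d, 2.12 for Clec4e, 3.25 for Siglec15 and -0.95 for Clec2d) and gave 4562 higher and 4379 lower calls over all genes and 37 and 46 in the lists. Same-numbered libraries deviated with correlations of 0.0336, -0.0227, 0.0208 and 0.0113, so the numbers were not taken to pair the libraries. Depth limits Clec4e and Fcer1g most, with at most 22 reads per library, as well as the control level of Clec4d.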
